A study of Loxodonta africana with 12 samples.

Results

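The genes described here are receptors, ligands, a nuclear effector and targets of the Notch pathway in blood of the African elephant (Loxodonta africana). They are NOTCH1, NOTCH2, NOTCH3, DLL1, DLL4, JAG1, JAG2, HES1, HEY1 and RBPJ, and they were taken by gene symbol from the deposited count tables. Of these 10 members, 9 have a row among 16406 genes, and JAG2 was not analysed here. The set was chosen by a readout of these data: NOTCH3 was among the largest rises 24 h after irradiation. Its values in the 24 h libraries, and in any comparison that uses them, are therefore given as a description without a test. The other members were added as its pathway partners.

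RNA was sequenced from elephant blood in 12 libraries. There were 3 libraries in each of 4 groups: irradiated with 2 Gy and sampled at 24 h, untreated at 24 h, irradiated with 2 Gy at 5 h, and untreated at 5 h. The labels name no genotype, age or sex, and do not say whether the replicates are separate animals, draws or cultures, so the p-values below cover variation among libraries that may be purely technical. For isolation and culture of the cells, nothing is given in the sources used here. At 24 h the library totals were 18022475 to 23805619 counts in irradiated and 22924260 to 37356501 in untreated libraries. At 5 h they were 31129422 to 38138163 in irradiated and 31059389 to 35964159 in untreated libraries. MDM2, the ubiquitin ligase that p53 induces and that degrades p53, checked the treatment labels. It was higher after 2 Gy by a log2 fold change of 2.68 ± 0.10 at 24 h (SE, edgeR quasi-likelihood test, adjusted p = 0.00017) and 2.64 ± 0.11 at 5 h (adjusted p = 2.4e-05). CDKN1A, the p53-induced inhibitor of the cell cycle, was higher by 2.58 ± 0.18 at 24 h (edgeR adjusted p = 0.00062) and 1.33 ± 0.14 at 5 h (adjusted p = 0.0028).

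Notch receptors are single-pass membrane proteins that bind ligands of the Delta-like and Jagged families on a neighbouring cell. Binding lets ADAM metalloproteases and then gamma-secretase cut the receptor, and the freed intracellular domain enters the nucleus and joins RBPJ to switch on genes of the HES and HEY families. In blood, NOTCH1 is known for committing progenitors to the T cell lineage and NOTCH2 for forming marginal zone B cells. NOTCH3 is best known from the smooth muscle cells and pericytes of vessels and is also active in developing T cells. These roles come from mouse and human work.

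Levels between genes were compared in the deposited FPKM values, which are per length of the gene model. In the irradiated libraries at 24 h the order of mean FPKM was HES1, RBPJ, NOTCH2, NOTCH1, JAG1, DLL4, HEY1, NOTCH3 and DLL1. In the untreated libraries at 24 h the first 7 places were the same, and DLL1 and NOTCH3 came last. At 5 h both groups had the order HES1, RBPJ, NOTCH2, NOTCH1, JAG1, NOTCH3, HEY1, DLL4 and DLL1. So the place of NOTCH3, the eighth or ninth at 24 h and the sixth at 5 h, moved more than that of the other receptors.

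HES1 averaged 502 ± 245 FPKM in irradiated and 366 ± 156 in untreated libraries at 24 h (SD, n = 3 each), and DLL1 averaged 0.664 ± 0.165 and 0.412 ± 0.0898 FPKM in the same groups. Neighbours in the order did not always separate. The ranges of HES1 and RBPJ overlapped in both groups at 5 h, and those of RBPJ and NOTCH2 in both groups at 24 h. HEY1 overlapped DLL4 in irradiated libraries at 5 h and in untreated libraries at 24 h, NOTCH3 in irradiated libraries at 24 h and DLL1 in untreated libraries at 24 h. DLL4 also overlapped DLL1 in irradiated libraries at 5 h. The NOTCH1 model has an exon length of 2094 bases on a span of 104163 bases, and its value per length depends on that model.

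**Figure D1:**
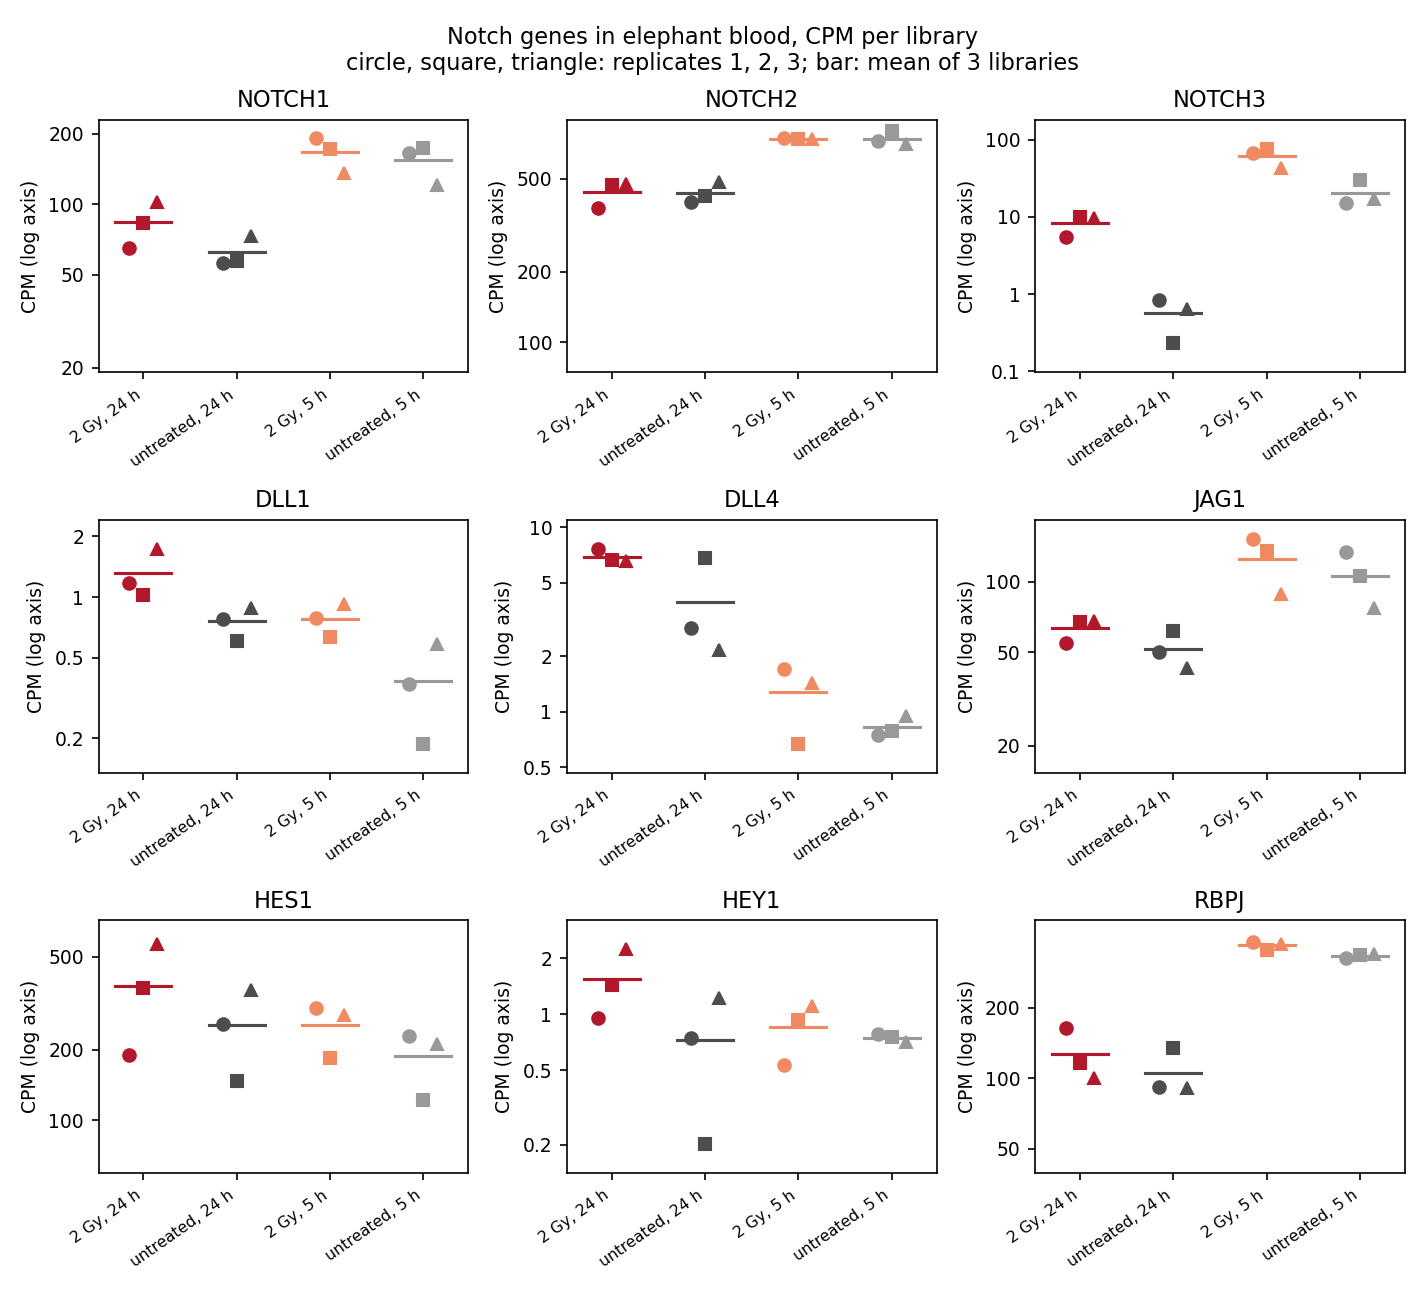
CPM (counts relative to the scaled library total, vertical log axis) of the 9 Notch genes in the 12 libraries, with irradiated (2 Gy) to the left of untreated at each time. Circles, squares and triangles are replicates 1, 2 and 3 and bars are means of 3 libraries. NOTCH3 lies at 5.42 to 9.89 CPM in irradiated and 0.231 to 0.845 CPM in untreated libraries at 24 h.

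Among the receptors, NOTCH3 (ENSLAFG00000031040, scaffold 26, 26650071 to 26685491, plus strand, elephant assembly L_africana_Jul_2009 as named in the tables, 6763 exon bases) was higher after irradiation in every library at both times. Its 5 h levels were 67.2, 76.1 and 42.5 CPM in irradiated libraries, against 15.1, 29.6 and 17.1 CPM in untreated libraries (replicates 1, 2 and 3). The groups did not overlap, and the lowest irradiated library, replicate 3, lay above the highest untreated one, replicate 2. This gave a log2 fold change of 1.57 ± 0.29 (SE), a fold of 2.96, with an adjusted p of 0.047 by edgeR's quasi-likelihood test. With the replicate number as a block it was 1.58 ± 0.11 with an adjusted p of 2.8e-08. By size of log2 fold change NOTCH3 ranked 69 of the 12969 genes tested at 5 h. The counts behind these values were 2125, 2041 and 1384 in irradiated and 405, 946 and 527 in untreated libraries.

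The call without the block rested on single libraries. Without irradiated replicate 1 or 2 the adjusted p was 0.2 and 0.16, and without untreated replicate 1 or 3 it was 0.13 each time. With a stricter filter on low counts it was 0.053. The log2 fold change over all 6 such repeats lay between 1.38 and 1.93. In blood, which mixes cell types, fewer cells of a type and less RNA per cell cannot be told apart, for NOTCH3 as for all genes below.

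At 24 h NOTCH3 stood at 5.42, 9.89 and 9.59 CPM in irradiated libraries, against 0.845, 0.231 and 0.637 CPM in untreated libraries. These are the values that chose it. The lowest irradiated library, replicate 1, lay above all untreated libraries. Irradiated over untreated, the log2 fold change was 3.85 ± 0.45, the third highest of 14373 genes. Its counts were 142, 221 and 189 in irradiated and 25, 8 and 28 in untreated libraries, and the 8 counts of replicate 2 have an exact Poisson 95% interval of 3.45 to 15.8, which covers counting error only. The ratio of irradiated over untreated was 6.41, 42.8 and 15.1 for replicate numbers 1, 2 and 3 at 24 h, where the numbers did not pair the libraries, and 4.45, 2.57 and 2.48 at 5 h. The difference of the irradiation effect, 24 h minus 5 h, was 2.27 ± 0.55 on the log2 scale and was not tested, because the 24 h libraries chose the gene.

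The level of NOTCH3 was lower at 24 h than at 5 h in both treatments. The mean of the irradiated libraries was 8.3 ± 2.5 CPM at 24 h and 62.0 ± 17.4 CPM at 5 h, and that of the untreated libraries was 0.571 ± 0.312 CPM at 24 h and 20.6 ± 7.88 CPM at 5 h (SD, n = 3 each). So all irradiated libraries at 24 h lay below all untreated libraries at 5 h, at 0.402 of their mean. The high ratio at 24 h was thus a ratio between 2 low levels, and the largest NOTCH3 levels of the series were those of the irradiated libraries at 5 h. The 24 h over 5 h log2 fold change was -2.85 ± 0.28 in irradiated and -5.15 ± 0.42 in untreated libraries, again as a description.

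NOTCH3 was a small part of the 3 receptors' RNA per length throughout. Its share of the summed FPKM of NOTCH1, NOTCH2 and NOTCH3 was 0.975% to 1.4% in irradiated and 0.0409% to 0.156% in untreated libraries at 24 h. At 5 h it was 3.7% to 5.87% in irradiated and 1.25% to 2.26% in untreated libraries. NOTCH2 held 55.9% to 61.2% in irradiated and 65.0% to 67.3% in untreated libraries at 24 h.

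No member overlaps another gene of the tables. The genes next to NOTCH3 did not pass the test. EPHX3, an epoxide hydrolase that ends 27376 bases before it, had log2 fold changes of 0.60 at 24 h (edgeR adjusted p = 0.32) and 0.31 at 5 h (adjusted p = 0.8). ILVBL, which begins 91725 bases after it, had -0.16 at 24 h (edgeR adjusted p = 0.55) and -0.05 at 5 h (adjusted p = 0.88).

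Genes with a pattern most like that of NOTCH3 were found by Pearson's r of log2 CPM over the 12 libraries, among 10395 genes with a symbol and a mean of at least 1 CPM. The 12 points fall into 4 groups, so r mostly reflects the group means and is a description. Among the 5 highest were CAPG, an actin-capping protein (r = 0.979), the small nucleolar RNA SNORD42 (0.976), BCL2L1, the gene of the anti-apoptotic protein BCL-XL (0.972), and CRTC2, a coactivator of CREB (0.966). BCL2L1 stood at 46.6 to 57.2 CPM in irradiated and 10.6 to 12.9 CPM in untreated libraries at 24 h. The 5 h libraries gave 166 to 210.3 CPM in irradiated and 90.1 to 98.3 CPM in untreated libraries. It was thus highest in irradiated libraries at 5 h and lowest in untreated libraries at 24 h, in the same order as NOTCH3. CAPG spanned less, with 71.6 to 84.3 CPM in irradiated and 49.0 to 61.4 CPM in untreated libraries at 24 h, and 105 to 112 CPM in irradiated and 96.4 to 102 CPM in untreated libraries at 5 h.

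NOTCH1 (ENSLAFG00000022253, scaffold 166, 805209 to 909371, plus strand) and NOTCH2 (ENSLAFG00000011961, scaffold 11, 67147830 to 67270563, plus strand) did not pass the irradiation test at either time. NOTCH1 stood at 65.1, 83.4 and 102 CPM in irradiated libraries at 24 h, against 56.3, 57.1 and 73.2 CPM in untreated libraries. Irradiated replicates 2 and 3 lay above all untreated libraries and replicate 1 within them. The log2 fold change was 0.41 ± 0.18 (edgeR adjusted p = 0.23). At 5 h NOTCH1 stood at 191, 172 and 136 CPM in irradiated libraries, against 166, 174 and 120.5 CPM in untreated libraries, a log2 fold change of 0.10 ± 0.16 (edgeR adjusted p = 0.84).

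NOTCH2 was the closest to 0 of the members. It stood at 376, 471 and 475 CPM in irradiated libraries at 24 h, against 396, 421 and 486 CPM in untreated libraries, a log2 fold change of 0.01 ± 0.13 (edgeR adjusted p = 0.97). Earlier, at 5 h, it stood at 745, 736 and 735 CPM in irradiated libraries, against 726, 798 and 700.1 CPM in untreated libraries, a log2 fold change of -0.02 ± 0.07 (edgeR adjusted p = 0.95). The irradiated libraries lay inside the range of the untreated ones at 5 h, and the groups overlapped at 24 h. Both changes lie within 1 SE of 0.

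**Figure D2:**
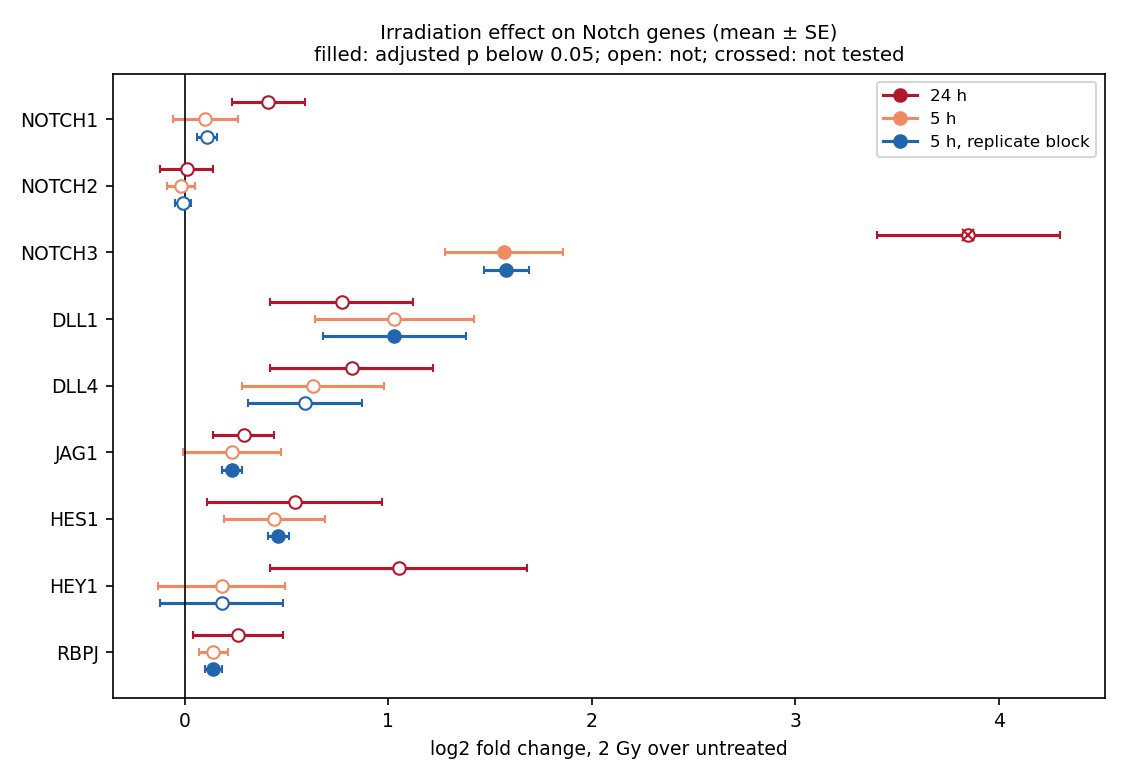
Log2 fold change (horizontal axis, 2 Gy over untreated, with SE) of the 9 Notch genes at 24 h, at 5 h, and at 5 h with the replicate number as a block, from 3 irradiated and 3 untreated libraries each. Filled points have an adjusted p below 0.05, open points do not, and the crossed point was not tested. NOTCH3 is at 3.85 and 1.57, and NOTCH2 is at 0.01 and -0.02.

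Of the ligands, DLL1 had the fewest counts, and it was above the untreated level in all irradiated libraries. DLL1 (ENSLAFG00000001043, scaffold 128, 2096882 to 2104376, minus strand), a Delta-like ligand, stood at 1.18, 1.03 and 1.73 CPM in irradiated libraries at 24 h, against 0.778, 0.607 and 0.887 CPM in untreated libraries. At 5 h it stood at 0.791, 0.634 and 0.921 CPM in irradiated libraries, against 0.373, 0.188 and 0.585 CPM in untreated libraries. Every irradiated library lay above every untreated library of its time. This gave a log2 fold change of 0.77 ± 0.35 at 24 h (edgeR adjusted p = 0.27) and 1.03 ± 0.39 at 5 h (adjusted p = 0.32), so DLL1 was not called. With the replicate block the 5 h value was 1.03 ± 0.35 with an adjusted p of 0.048, and this call was lost when any 1 replicate number was left out. The 5 h counts were 25, 17 and 30 in irradiated and 10, 6 and 18 in untreated libraries, and the 6 counts have an exact Poisson 95% interval of 2.2 to 13.1.

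DLL4 (ENSLAFG00000014766, scaffold 64, 10539255 to 10546458, plus strand), the ligand known to drive T cell commitment in the thymus, stood at 7.63, 6.63 and 6.6 CPM in irradiated libraries at 24 h, against 2.84, 6.79 and 2.16 CPM in untreated libraries. Untreated replicate 2 lay inside the irradiated range and the other untreated libraries below it. Irradiated over untreated, the log2 fold change was 0.82 ± 0.40 (edgeR adjusted p = 0.29). Without untreated replicate 2 it was 1.48 with an adjusted p of 0.019. At 5 h DLL4 stood at 1.71, 0.671 and 1.44 CPM in irradiated libraries, against 0.746, 0.783 and 0.942 CPM in untreated libraries, and irradiated replicate 2 was the lowest of the 6. The log2 fold change at 5 h was 0.63 ± 0.35 (edgeR adjusted p = 0.52).

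JAG1 (ENSLAFG00000018468, scaffold 19, 19168035 to 19205725, plus strand), the ligand of the Jagged family with a row, stood at 54.7, 67.3 and 68.3 CPM in irradiated libraries at 24 h, against 50.3, 61.6 and 42.8 CPM in untreated libraries. Its 5 h levels were 152, 136 and 88.4 CPM in irradiated libraries, against 134, 106 and 77.3 CPM in untreated libraries. The groups overlapped at both times. At 24 h the log2 fold change was 0.29 ± 0.15 (edgeR adjusted p = 0.33). At 5 h it was 0.23 ± 0.24 (edgeR adjusted p = 0.75), and with the replicate block 0.23 ± 0.05 (adjusted p = 0.0021). The ratio of irradiated over untreated at 5 h was 1.13, 1.28 and 1.14 in replicate numbers 1, 2 and 3.

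RBPJ (ENSLAFG00000000410, scaffold 18, 27168120 to 27284742, plus strand), the DNA-binding protein through which all Notch receptors act, stood at 163, 116 and 100.4 CPM in irradiated libraries at 24 h, against 92.0, 134 and 90.7 CPM in untreated libraries. The 5 h libraries gave 380.5, 352 and 375 CPM in irradiated libraries, against 325, 334 and 340.1 CPM in untreated libraries. The groups overlapped at 24 h and did not overlap at 5 h. The log2 fold change was 0.26 ± 0.22 at 24 h (edgeR adjusted p = 0.56) and 0.14 ± 0.07 at 5 h (adjusted p = 0.44). With the replicate block the 5 h value was 0.14 ± 0.04 with an adjusted p of 0.036, and this call was lost without replicate number 1 or 3.

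HES1 (ENSLAFG00000008932, scaffold 25, 14650149 to 14652000, plus strand), a repressor of transcription and a direct Notch target, varied widely between libraries. It stood at 191, 368 and 568 CPM in irradiated libraries at 24 h, against 257, 148 and 361 CPM in untreated libraries, and irradiated replicate 1 lay below untreated replicates 1 and 3. Earlier, at 5 h, it stood at 301, 185 and 281 CPM in irradiated libraries, against 229, 122 and 212 CPM in untreated libraries. Replicate 2 was the lowest of both groups at 5 h, and the groups overlapped. This gave a log2 fold change of 0.54 ± 0.43 at 24 h (edgeR adjusted p = 0.53) and 0.44 ± 0.25 at 5 h (adjusted p = 0.54). With the replicate block the 5 h value was 0.46 ± 0.05 with an adjusted p of 2.2e-06. The ratio of irradiated over untreated at 5 h was 1.32, 1.52 and 1.33 in replicate numbers 1, 2 and 3.

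HEY1 (ENSLAFG00000011488, scaffold 8, 26960047 to 26962522, minus strand), a related repressor best known as a target in vessel and heart development, was near the lower end of detection. It stood at 0.954, 1.43 and 2.23 CPM in irradiated libraries at 24 h, against 0.744, 0.202 and 1.23 CPM in untreated libraries, and the groups overlapped. At 5 h it stood at 0.538, 0.932 and 1.11 CPM in irradiated libraries, against 0.783, 0.752 and 0.715 CPM in untreated libraries, which all lay within the irradiated range. Irradiated over untreated, the log2 fold change was 1.05 ± 0.63 at 24 h (edgeR adjusted p = 0.4) and 0.18 ± 0.31 at 5 h (adjusted p = 0.85). Its lowest library, untreated replicate 2 at 24 h, held 7 counts with an exact Poisson 95% interval of 2.81 to 14.4.

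**Figure D3:**
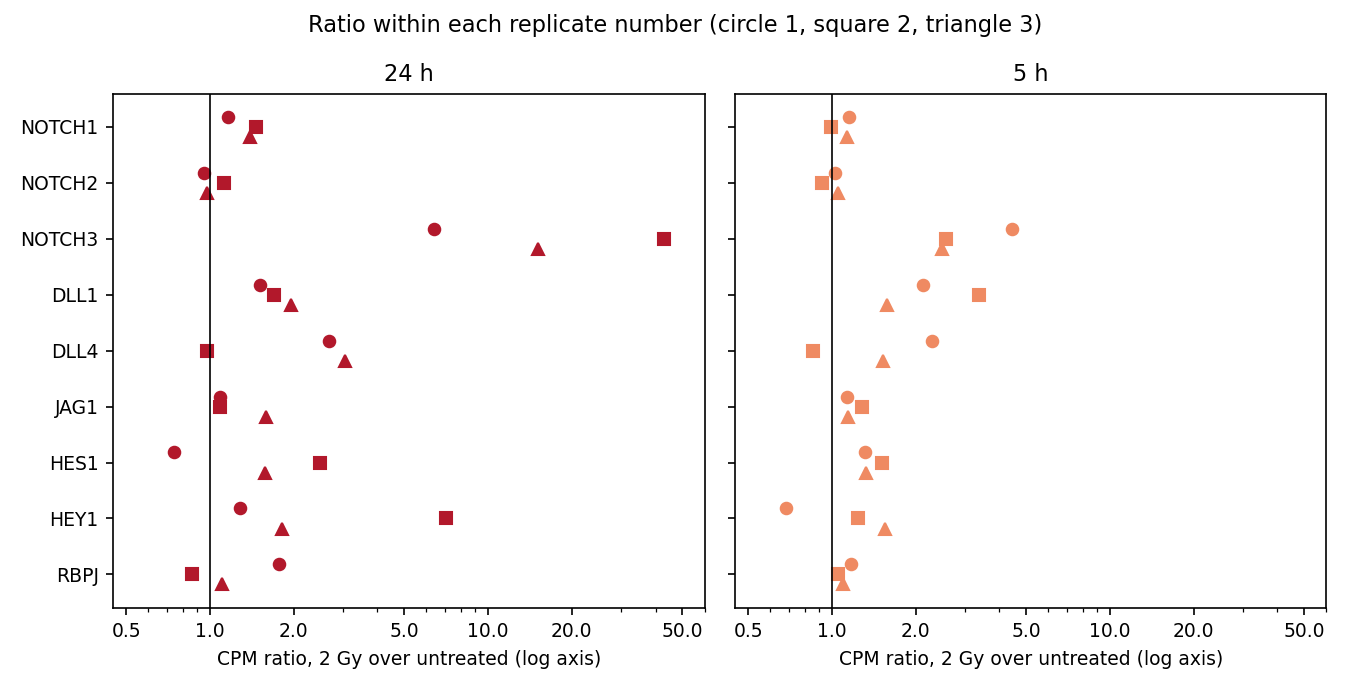
Ratio of CPM, 2 Gy over untreated (horizontal log axis), of the 9 Notch genes within each replicate number at 24 h and at 5 h, where circles, squares and triangles are numbers 1, 2 and 3 and the line marks a ratio of 1. HES1 lies at 0.743 to 2.49 at 24 h and at 1.32 to 1.52 at 5 h. Libraries of the same number correlated in every pair at 5 h and not in every pair at 24 h. The labels do not say what a number marks.

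Counted over the set at 5 h, 1 of the 9 members was called, NOTCH3, beside 1.6% of all genes tested. The other members were not called. The counts and the median at 5 h include NOTCH3, the gene for which the set was chosen. With the replicate block 5 of the 9 were called, all higher in irradiated libraries, namely NOTCH3, DLL1, JAG1, RBPJ and HES1, beside 20.5% of all genes. Leaving out both libraries of 1 replicate number in that fit gave 3 to 6 called members. NOTCH3, JAG1 and HES1 were called in each of these repeats, and NOTCH1 and DLL4 were called without replicate number 2. In the repeat without replicate number 1 the edgeR adjusted p of NOTCH3 was 2.3e-72, far below the 2.8e-08 with all libraries. Fits of so few libraries cannot show whether a call is stable, and the share of all genes called in them is not given. The groups did not overlap, with irradiated higher, for 3 of 9 members at 5 h (NOTCH3, DLL1 and RBPJ), beside 10.2% of all genes. The median log2 fold change of the 9 members at 5 h was 0.23, beside 0.00 over all genes.

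At 24 h none of the 8 members other than NOTCH3 was called by edgeR, beside 6.73% of all genes tested. At an unadjusted p below 0.05 the count was 0 by edgeR and 2 by DESeq2 (NOTCH1 and DLL4), and DESeq2 called 0 after adjustment. All 8 log2 fold changes were above 0, with a median of 0.48, beside 0.01 over all genes. NOTCH2 turned below 0 when only library totals were used for scaling, and also with no filter. Among these 8, DLL1 alone had groups that did not overlap, beside 9.42% of all genes with irradiated higher. For none of the 8 did the irradiation effect differ between 24 h and 5 h by the interaction term, which called 0.882% of all genes. That count was also 0 at an unadjusted p below 0.05 by edgeR and by DESeq2. The nearest to a difference was HEY1, with 0.86 ± 0.73 on the log2 scale (24 h minus 5 h, edgeR adjusted p = 0.83).

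In size of log2 fold change, the times differed more than the treatments for NOTCH1, NOTCH2, DLL4, JAG1 and RBPJ, a comparison that was not itself tested. In irradiated libraries 6 of the 8 members other than NOTCH3 were called at 24 h against 5 h, beside 65.9% of all genes. In untreated libraries 5 of 8 were called, beside 63.1% of all genes. These counts lie near the background, so they are given for their directions and sizes. The time points also differ in their library totals, and the deposited tables hold 1 time point each.

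NOTCH1 and NOTCH2 were lower at 24 h. NOTCH1 fell by 0.94 ± 0.18 on the log2 scale in irradiated libraries (edgeR adjusted p = 0.0018) and by 1.26 ± 0.16 in untreated libraries (adjusted p = 0.0002). NOTCH2 fell by 0.69 ± 0.12 in irradiated libraries (edgeR adjusted p = 0.0011) and by 0.73 ± 0.11 in untreated libraries (adjusted p = 0.00051). RBPJ had the steepest fall of the members tested, by 1.49 ± 0.18 in irradiated libraries (edgeR adjusted p = 0.00014) and by 1.62 ± 0.15 in untreated libraries (adjusted p = 3.7e-05).

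The ligands moved in opposite directions over time. JAG1 fell by 0.93 ± 0.19 in irradiated libraries (edgeR adjusted p = 0.0029) and by 1.0 ± 0.21 in untreated libraries (adjusted p = 0.003). DLL4 was higher at 24 h, by a log2 fold change of 2.49 ± 0.29 in irradiated libraries (edgeR adjusted p = 0.00015) and 2.28 ± 0.44 in untreated libraries (adjusted p = 0.0021). So JAG1 was the lower at 24 h and DLL4 the higher in both treatments, without overlap between the times. DLL1 was higher by 0.78 ± 0.29 in irradiated libraries (edgeR adjusted p = 0.039) and had 1.03 ± 0.45 in untreated libraries (adjusted p = 0.073). The DLL1 call was lost without any 1 of the 6 libraries, with adjusted p between 0.054 and 0.2, and DESeq2 did not make it (adjusted p = 0.14). Neither target was called: HES1 had 0.61 ± 0.35 in irradiated libraries (edgeR adjusted p = 0.15) and 0.49 ± 0.32 in untreated libraries (adjusted p = 0.21), and HEY1 had 0.88 ± 0.38 (adjusted p = 0.071) and 0.01 ± 0.55 (adjusted p = 0.99) in the same groups.

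The time directions depend in part on scaling. With library totals alone, an alternative added after the data were seen, the median log2 fold change of all genes at 24 h against 5 h was 0.44 in irradiated and 0.52 in untreated libraries, beside 0.10 and 0.11 with TMM scaling. The split of called genes was then 6968 higher and 2630 lower in irradiated libraries, beside 4956 and 4293 with TMM. In untreated libraries it was 7063 higher and 2234 lower, beside 4383 and 4107 with TMM. NOTCH1, NOTCH2, JAG1 and RBPJ were still called lower and DLL4 higher in both treatments. With totals alone DLL1 and HES1 were called higher in both treatments and HEY1 in irradiated libraries, of which only DLL1 in irradiated libraries was called with TMM.

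**Figure D4:**
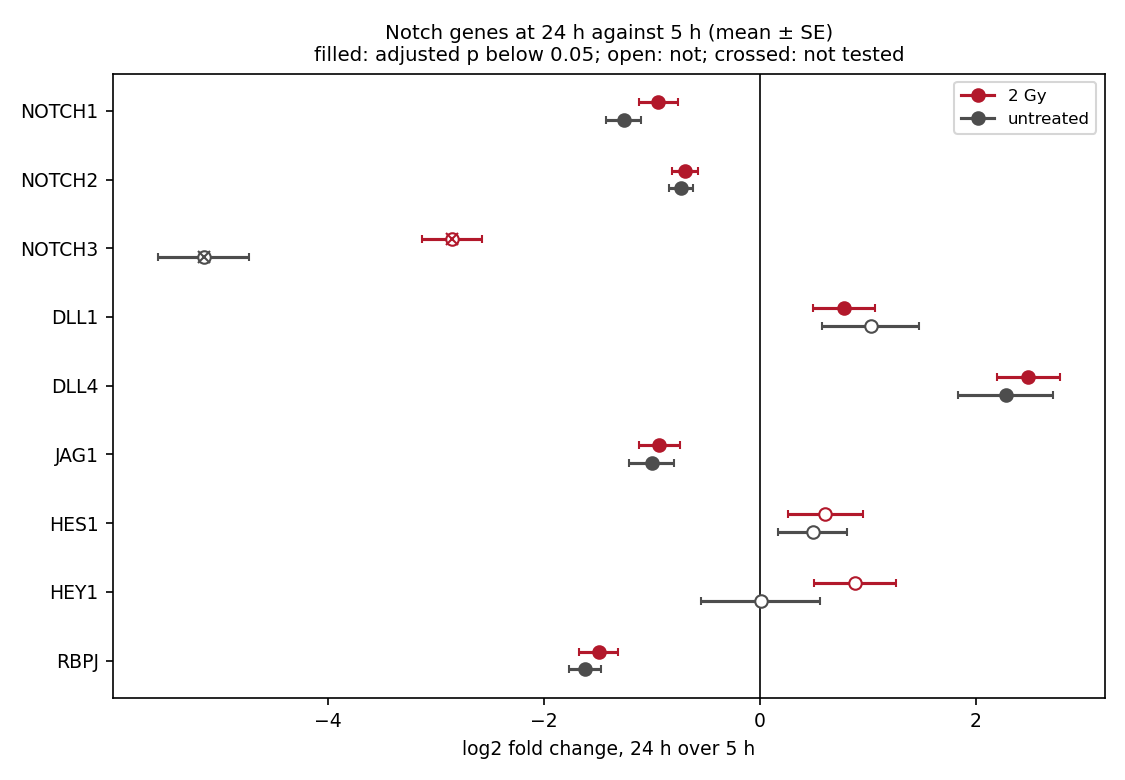
Log2 fold change (horizontal axis, 24 h over 5 h, with SE) of the 9 Notch genes in irradiated (2 Gy) and untreated blood, 3 libraries per time and treatment. Filled points have an adjusted p below 0.05, open points do not, and crossed points were not tested. NOTCH3 is at -2.85 in irradiated and -5.15 in untreated libraries, and DLL4 is at 2.49 and 2.28.

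The rest of the pathway was followed in 5 lists of 107 other genes in all, of which 96 have a row. At 24 h 1 of the 87 tested was higher and 7 were lower in irradiated libraries, with a median log2 fold change of 0.11 (8 called, beside the 6.73% of all genes given above). Calls over all genes leaned the same way, with 258 higher and 710 lower. At 5 h none of 85 was higher and 2 were lower, with a median of 0.00, beside 1.6% of all genes called. With the replicate block at 5 h 12 were higher and 12 lower, beside 20.5% of all genes. These counts lie near the background. DESeq2 called 13 at 24 h and 5 at 5 h. It tested more genes of the lists, and its share over all genes is not given. The DESeq2 counts therefore cannot be set against the edgeR shares.

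Among the other receptors and ligands, 0 of 5 tested were called at 24 h and 0 of 4 at 5 h, and 0 had an unadjusted p below 0.05 by edgeR or by DESeq2 at either time. The smallest p at 24 h belonged to DNER, a non-canonical ligand known from neurons, with 1.03 ± 0.57 (edgeR adjusted p = 0.35). Of the 10 cleavage genes tested at each time none was called by edgeR. At an unadjusted p below 0.05 the count was 0 at 24 h and 3 at 5 h, and DESeq2 called 0 at 24 h and 1 at 5 h, the gamma-secretase subunit APH1B. The smallest p of that list at 24 h belonged to TSPAN5, a tetraspanin that guides ADAM10, with -0.51 ± 0.26 (edgeR adjusted p = 0.32).

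The trafficking and glycosylation list held the largest fall, with 0 of 26 higher and 3 lower at 24 h. NEURL3 of the same list went the other way, but edgeR did not call it without the block. Its log2 fold change was 1.16 ± 0.54 at 24 h (edgeR adjusted p = 0.27) and 2.89 ± 0.75 at 5 h (adjusted p = 0.14). At 5 h NEURL3 was called with the replicate block (edgeR adjusted p = 0.0071) and by DESeq2. EOGT, which adds N-acetylglucosamine to the EGF repeats of Notch receptors, stood at 1.95, 2.33 and 1.47 CPM in irradiated libraries at 24 h, against 11.5, 8.64 and 11.4 CPM in untreated libraries. All irradiated libraries lay far below all untreated ones, and the log2 fold change was -2.46 ± 0.22 (edgeR adjusted p = 0.0018). At 5 h EOGT stood at 3.13, 3.32 and 4.02 CPM in irradiated libraries, against 5.15, 6.64 and 7.05 CPM in untreated libraries. It was not called by edgeR there without the block, and was called with the block (adjusted p = 6.2e-05) and by DESeq2 (adjusted p = 0.0018).

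MFNG, the Manic Fringe enzyme that extends fucose on the receptors and shifts which ligands they answer, fell at both times. It stood at 10, 16.6 and 16.9 CPM in irradiated libraries at 24 h, against 42.6, 36.8 and 47.8 CPM in untreated libraries, a log2 fold change of -1.56 ± 0.21 (edgeR adjusted p = 0.0081). Its 5 h levels were 23.2, 26.2 and 27.3 CPM in irradiated libraries, against 36.9, 42.2 and 34.8 CPM in untreated libraries, a log2 fold change of -0.58 ± 0.10 (edgeR adjusted p = 0.038). The groups overlapped at neither time. The 5 h call was lost without irradiated replicate 1 or 2 or untreated replicate 1 or 2 (adjusted p = 0.11 to 0.19), and with the replicate block the adjusted p was 1.8e-05. NEDD4, a ubiquitin ligase that acts on Notch and many other membrane proteins, had a log2 fold change of -0.70 ± 0.13 at 24 h (edgeR adjusted p = 0.027). That call was lost without irradiated replicate 2 or 3 or untreated replicate 1 or 3 (adjusted p = 0.057 to 0.088).

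In the nuclear list, 0 of 28 were higher and 1 was lower at 24 h. This was TLE1, a Groucho corepressor that works with HES proteins, at 5.38, 7.43 and 10.4 CPM in irradiated libraries, against 19.3, 17.6 and 22.4 CPM in untreated libraries. The groups did not overlap, and the log2 fold change was -1.37 ± 0.23 (edgeR adjusted p = 0.017). Without irradiated replicate 2 the adjusted p was 0.079 and without untreated replicate 1 it was 0.054.

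Of 18 other targets tested at 24 h, 1 was higher and 3 were lower. RUNX1, a transcription factor of blood stem and progenitor cells, stood at 45.5, 49.1 and 59.0 CPM in irradiated libraries, against 30.5, 31.8 and 34.5 CPM in untreated libraries. Its log2 fold change of 0.65 ± 0.11 (edgeR adjusted p = 0.018) lost the call without any 1 library other than irradiated replicate 1, with adjusted p between 0.053 and 0.077. The groups did not overlap.

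MEF2C, a transcription factor used by B cells among others, stood at 20.6, 27.4 and 24.5 CPM in irradiated libraries at 24 h, against 67.4, 61.4 and 71.5 CPM in untreated libraries. The log2 fold change was -1.48 ± 0.13 (edgeR adjusted p = 0.0016). At 5 h it was -0.34 ± 0.06 (edgeR adjusted p = 0.041), a call lost without any 1 library (adjusted p = 0.08 to 0.22) and with an adjusted p of 8.8e-05 with the replicate block. IL7R, the interleukin 7 receptor of lymphocytes, had -0.68 ± 0.10 at 24 h (edgeR adjusted p = 0.012), and lost the call without irradiated replicate 2 (adjusted p = 0.07) and in 1 fit of all 12 libraries (adjusted p = 0.053). TRIB2, a pseudokinase, had -1.53 ± 0.24 at 24 h (edgeR adjusted p = 0.014), and lost the call without untreated replicate 1 (adjusted p = 0.052). At 5 h the log2 fold changes of RUNX1, IL7R, TRIB2, TLE1 and NEDD4 were 0.31, -0.49, -0.45, -0.28 and -0.23. None of these was called there by edgeR without the block (adjusted p = 0.12 to 0.6). With the block all were called (edgeR adjusted p = 2.1e-05 to 0.045), beside 20.5% of all genes. The 7 genes that fell at 24 h include modifiers of the receptors, a corepressor and lymphocyte genes. The calls of these lists at 24 h lie near the background given above, so this is a description only.

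**Figure D5:**
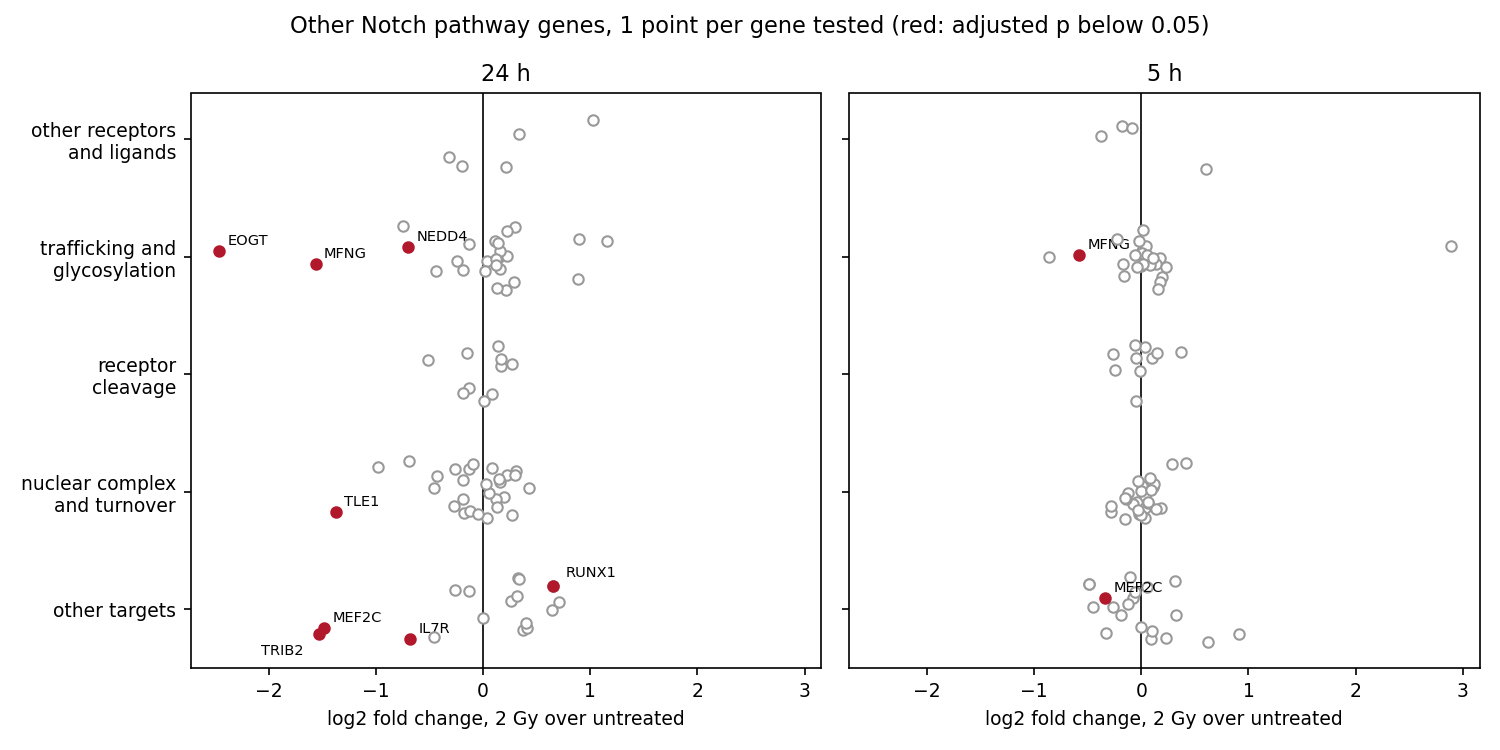
Log2 fold change (horizontal axis, 2 Gy over untreated) of the other Notch pathway genes tested at 24 h and at 5 h, 1 point per gene, in 5 lists from top to bottom. Red points, which are named, have an adjusted p below 0.05 and grey open points do not. At 24 h the points run from EOGT at -2.46 to positive values, and 7 of the 8 red points lie below 0.

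Markers of blood cell types moved with treatment at 24 h, and their part in the results above was not tested. The called counts of all marker lists stand beside 6.73% of all genes at 24 h, 258 higher and 710 lower, and 1.6% at 5 h. No share over all genes is given for the overlap of the sums. Of the B cell markers with a row, 12 of 15 tested were lower and 0 higher at 24 h, with a median log2 fold change of -2.67. Their summed level was 311 to 788 CPM in irradiated libraries, against 875 to 1446 CPM in untreated libraries. FCER2 was the largest part of that sum, with means of 265 CPM in irradiated and 482 CPM in untreated libraries. MS4A1 had 5.06 and 82.3 CPM, and CD72 was higher, at 95.7 and 82.9 CPM in the same groups. At 5 h 1 of 16 B cell markers was lower and 0 higher. Their sum was then 446 to 734 CPM in irradiated libraries, against 650.1 to 897 CPM in untreated libraries. MFNG, MEF2C, EOGT, TLE1, TRIB2, NEDD4 and IL7R were lower in the same irradiated libraries at 24 h. The T cell, NK and dendritic sums given below were lower there too, and a link to any of these lists was not tested.

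At 24 h the T cell markers summed to 472 to 621 CPM in irradiated libraries, against 745 to 803 CPM in untreated libraries, with 3 of 14 lower and 0 higher. The NK and cytotoxic markers summed to 167 to 242 CPM in irradiated libraries, against 427 to 486 CPM in untreated libraries, with 6 of 9 lower and 0 higher. These lymphocyte lists were all lower without overlap of their sums. The monocyte and macrophage markers summed to 6177 to 7162 CPM in irradiated libraries, against 3449 to 4156 CPM in untreated libraries, with 3 of 9 higher and 1 lower. Most of that gap was ITGAM, with means of 3124 CPM in irradiated and 1236 CPM in untreated libraries. CSF1R was level, at 1425 and 1408 CPM, and APOE was lower, at 50.2 and 80.8 CPM in the same groups. The neutrophil markers summed to 565 to 648 CPM in irradiated libraries, against 269.8 to 383 CPM in untreated libraries, with 1 of 11 higher and 0 lower. The platelet markers summed to 109 to 138 CPM in irradiated libraries, against 52.2 to 67.8 CPM in untreated libraries, with 3 of 9 higher and 0 lower. These 3 sums were higher at 24 h without overlap. The dendritic cell markers summed to 426 to 558 CPM in irradiated libraries, against 567 to 756 CPM in untreated libraries, with 3 of 9 lower and 0 higher. Most of that gap was IRF8, with means of 104 CPM in irradiated and 227 CPM in untreated libraries, and TCF4, with 24.0 and 68.0 CPM. CD1C, IRF4, IL3RA and BATF3 had higher means in irradiated libraries, and the median log2 fold change of the list was -0.07. The dendritic sum therefore does not show the other markers. The erythroid markers summed to 30.4 to 70.1 CPM in irradiated libraries, against 17.9 to 32.9 CPM in untreated libraries, with 0 of 7 called and a median log2 fold change of 0.89. At 5 h the sums of the monocyte, neutrophil and platelet markers overlapped between treatments. They were 3634 to 4667, 1465 to 1915 and 86.1 to 162 CPM in irradiated libraries, against 3023 to 3917, 1554 to 2035 and 66.1 to 141 CPM in untreated libraries. Of the markers tested in these lists at 5 h, 1 of 9, 1 of 10 and 1 of 8 were higher and 0 were lower.

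The mural and stromal markers, of the vessel cells in which NOTCH3 is best known, summed to 54.3 to 85.9 CPM in irradiated and 68.5 to 81.2 CPM in untreated libraries at 24 h, with 0 of 11 higher and 1 lower. At 5 h they summed to 43.9 to 53.4 CPM in irradiated and 49.9 to 56.8 CPM in untreated libraries, with 0 of 10 called. PDGFRB made up most of the 5 h sum, with means of 31.2 CPM in irradiated and 31.9 CPM in untreated libraries. PDGFRB and MCAM made up most of the 24 h sum, so these sums do not show the other markers. The endothelial markers summed to 844 to 984 CPM in irradiated and 816 to 1038 CPM in untreated libraries at 24 h, with 1 of 11 higher and 1 lower, and at 5 h to 405 to 448 CPM in irradiated and 442 to 477 CPM in untreated libraries. PECAM1, also found on platelets and leukocytes, made up most of the endothelial sum at 24 h, with means of 837 CPM in irradiated and 834 CPM in untreated libraries, so the sum does not show the other markers. CDH5, the cadherin of endothelial junctions, averaged 1.32 CPM in irradiated and 5.9 CPM in untreated libraries at 24 h. VWF went the other way, with means of 21.1 CPM in irradiated and 12.4 CPM in untreated libraries at 24 h. Over the 11 endothelial markers tested at 24 h the median log2 fold change was 0.40. None of the markers with a row in these lists was at 0 in all libraries of a group. In the time comparisons the neutrophil sum was lower at 24 h. It was 565 to 648 CPM at 24 h and 1465 to 1915 CPM at 5 h in irradiated libraries, and 269.8 to 383 CPM at 24 h and 1554 to 2035 CPM at 5 h in untreated libraries, and most of it was RNA of MMP9 and S100A12. Its part in the lower NOTCH1, NOTCH2, JAG1, RBPJ and NOTCH3 levels at 24 h was not tested.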

How the data were processed

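RNA-seq libraries of elephant blood were made with a stranded kit after ribosomal RNA depletion, per the labels' protocols. The authors deposited, for each time point, raw counts per gene and library, FPKM and log2 ratios of untreated over irradiated, per the file headers. The counts went into every test. The deposited FPKM values served to compare levels between genes, and the deposited log2 ratios only as a check of direction (the authors' deposited table gives -3.77 for NOTCH3 at 24 h, with the opposite sign convention). No source used here names the aligner or counter, or says if counting was stranded.

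Tests were run in edgeR 4.0.16 under R 4.3.3 (TMM, filterByExpr, quasi-likelihood F test, Benjamini-Hochberg adjustment over all genes tested, threshold 0.05). At 24 h 14373 genes were tested and at 5 h 12969. Each comparison used its own 6 libraries, and the interaction used all 12. SE is the log2 fold change over the root of F. CPM values share 1 TMM scaling of all 12 libraries. Log2 CPM used a prior count of 2. The alternatives were DESeq2 1.42.0, other scalings and filters, 1 fit of all libraries, the replicate block, and leaving out libraries. Figures were drawn with matplotlib.

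Replicate numbers from the labels were checked as pairs by correlating deviations from group means over 11803 genes with a mean of at least 1 CPM. At 5 h the correlations were 0.503, 0.464 and 0.681, so block values are given at 5 h. They are given for members and for other pathway genes called by edgeR without the block at either time. Of these, they cover the 5 h results whose call they changed or whose call rested on single libraries. Over all 15200 genes they were 0.141, 0.0955 and 0.343. The labels do not say that a number marks a shared animal or culture, so the block was taken from these same data.

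All members are named. Of the other lists, the genes called after irradiation by edgeR without the block are named. In a list with none, the gene with the smallest p at 24 h is named. NEURL3 and APH1B, called at 5 h by DESeq2, are named besides. Genes of those lists called between times were only counted (17 higher and 38 lower of 86 in irradiated, 19 and 41 of 87 in untreated libraries). Of the 5 genes most like NOTCH3, 1 is not reported here. Members and lists were chosen with earlier results of these data known.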

Additional observations from a re-analysis of the deposited data

Results flagged for a closer look

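The irradiation effect differed between 24 h and 5 h, by the interaction term over all 12 libraries, for 2 of the 90 genes tested in the other pathway lists, beside 0.882% of all genes. With the replicate block there were 3, TLE1 being added. For EOGT the difference was -1.60 on the log2 scale (24 h minus 5 h, edgeR adjusted p = 0.015), with -2.46 at 24 h and -0.86 at 5 h. For MEF2C it was -1.14 (edgeR adjusted p = 0.0025), with -1.48 at 24 h and -0.34 at 5 h.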

How the results depend on the processing

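Over the members' log2 fold changes that were tested, 503 of the repeats kept direction and call, 15 lost a call, 15 gained one and 35 turned direction, all of the last in values that were not called. The count of called members at 5 h was 0 under the stricter filter and 5 with the replicate block, and 0 to 1 without 1 library. With the block and without 1 replicate number it was 3 to 6, in fits too small to show whether a call is stable. At 24 h it was 0 to 1 without 1 library. The other pathway genes called numbered 5 at 5 h by DESeq2, 24 with the replicate block, 0 in 1 fit of all 12 libraries and 0 to 1 without 1 library. At 24 h they numbered 13 by DESeq2 and 4 to 8 without 1 library. No share over all genes stands beside the DESeq2 counts. Without 1 library, the log2 fold change at 5 h ranged from -0.05 to 0.22 for NOTCH1, -0.06 to 0.05 for NOTCH2 and -0.07 to 0.44 for HEY1. NOTCH2 at 24 h was -0.06 with library totals only and -0.02 with no filter, and -0.06 to 0.10 without 1 library. The 24 h minus 5 h difference of NOTCH2 was -0.03 with library totals only and ranged from -0.04 to 0.11 without 1 library. The same range was -0.71 to 0.08 for DLL1, -0.12 to 0.84 for DLL4, -0.16 to 0.23 for JAG1, -0.32 to 0.45 for HES1 and -0.13 to 0.32 for RBPJ. HEY1 in untreated libraries, 24 h against 5 h, was -0.10 by DESeq2, -0.05 with RLE size factors, -0.06 with no filter, -0.20 with the replicate block, -0.03 in 1 fit of all libraries, and -0.67 to 0.40 without 1 library. The cause of these changes was not tested. At 24 h and between times the libraries share only a replicate number. At 24 h the same-number correlations were -0.0861, -0.498 and 0.752, and irradiated replicates 1 and 2 correlated best with untreated replicates 2 and 1 (0.746 and 0.45). The block called 0 of 8 members at 24 h, but it joined libraries whose numbers did not pair. That count therefore does not show what a matched pairing would give, and no fit with the crossed pairs was run. Between times the block called 7 of 8 members in irradiated and 6 of 8 in untreated libraries. DLL1, DLL4 and HEY1, with 6 to 54 counts per library at 5 h, were not tested under the stricter filter at 5 h, nor DLL1 and HEY1 under it in untreated libraries between times. At these counts small differences were not detectable.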
